A study of Mus musculus with 41 samples.

Results

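RANKL, OPG and CSF1 signalling was followed through 6 genes in tibial RNA of young mice, old mice and old mice given AP20187 (AP). The genes were found in the count table by their symbols: Tnfsf11 (encoding RANKL), Tnfrsf11b (OPG), Tnfrsf11a (RANK), Csf1, Csf1r and Il34. Each symbol matched 1 gene of the 43346 in the count table, and all 6 were among the 19292 genes that passed the filter on low counts. The 41 mice were females of the p16-INK-ATTAC line on a C57BL/6 background, and all 3 groups carried the transgene, in which the p16Ink4a promoter drives a protein that AP switches on to kill the cells expressing it. The young group held 12 mice labelled 6 to 12 months of age and as receiving vehicle. The 13 old + vehicle-treated and 16 old + AP-treated mice were labelled 20 months of age at the start of treatment and were injected 2 times a week for 4 months, the latter with AP at 10 mg per kg body weight. RNA came from tibial diaphyses that had been spun to remove the marrow, and each library was 1 mouse.

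RANKL is a membrane-bound or shed cytokine made in bone mainly by osteocytes, osteoblast-lineage cells and marrow adipogenic stromal cells, and also by lymphocytes. It binds RANK on osteoclast precursors and turns them into bone-resorbing osteoclasts, while OPG, a secreted decoy receptor, captures RANKL before it reaches RANK. CSF1, and IL-34 through the same receptor CSF1R, keeps monocytes, macrophages and osteoclast precursors alive and dividing. The balance of RANKL to OPG is a customary readout of how strongly bone cells drive osteoclast formation.

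In the mm10 build used for the counts, Tnfsf11 lies at chr14:78277445-78308043 on the minus strand, Tnfrsf11b at chr15:54250619-54278484 on the minus strand and Tnfrsf11a at chr1:105780718-105847981 on the plus strand. Csf1 lies at chr3:107741048-107760469 and Il34 at chr8:110741829-110805924, both on the minus strand. Counts cover the exons of each gene. The RefSeq table of GRCm38.p6 held a promoter for 3 of the 6 genes, and their 250 bases before the transcription start are shown because these genes encode the osteoclastogenic ligand, its receptor and the ligand that maintains its target cells. They are written 5′ to 3′ on the strand of the gene, with motif matches in capitals, for Tnfsf11 (chr14:78308044-78308293, minus), Tnfrsf11a (chr1:105780473-105780722, plus) and Csf1 (chr3:107760470-107760719, minus).
Tnfsf11: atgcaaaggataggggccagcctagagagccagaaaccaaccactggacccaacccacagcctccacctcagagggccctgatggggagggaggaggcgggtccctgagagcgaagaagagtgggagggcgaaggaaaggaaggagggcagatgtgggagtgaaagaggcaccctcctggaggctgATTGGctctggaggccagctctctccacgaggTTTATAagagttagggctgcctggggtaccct
Tnfrsf11a: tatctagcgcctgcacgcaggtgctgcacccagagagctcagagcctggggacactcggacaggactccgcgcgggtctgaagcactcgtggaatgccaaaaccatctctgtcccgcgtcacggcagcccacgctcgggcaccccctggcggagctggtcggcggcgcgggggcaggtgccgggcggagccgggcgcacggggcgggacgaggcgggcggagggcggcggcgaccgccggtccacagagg
Csf1: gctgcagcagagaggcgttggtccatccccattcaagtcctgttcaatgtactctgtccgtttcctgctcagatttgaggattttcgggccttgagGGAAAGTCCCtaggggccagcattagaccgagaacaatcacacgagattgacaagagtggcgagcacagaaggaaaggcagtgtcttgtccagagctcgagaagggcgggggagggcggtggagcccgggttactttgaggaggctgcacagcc
Both strands were searched for 6 motifs that were listed after the sequences had been seen. The Tnfsf11 window held TATAAA, the core of the TATA box, on the reverse strand, ending 27 bases before the start. It also held the CCAAT box on the reverse strand, ending 60 bases before the start. The former letters were present in 12.4% and the latter in 33.8% of the 32851 promoter windows of the same length. The Csf1 window held the kappaB motif on the reverse strand (the capitals show its complement), ending 145 bases before the start, and 0.14% of all windows held that motif. The Tnfrsf11a window held none of the 6 and had a GC content of 73.6%, above the 60.4% of Tnfsf11, the 56.4% of Csf1 and the median of 52.4% over all windows. An AP-1 motif (TGACTCA) was found in 4.46% of all windows, a PU.1 motif (GAGGAAG) in 10.6% and a Runx motif (TGTGGT) in 14%, and in none of the 3 shown. No matches overlapped. A match describes letters only.

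The libraries held 37028959 to 75942717 counted reads (median 47774880), so that even the rarest of the 6 genes, Tnfsf11, had 138 to 702 reads in each mouse. No label names a sequencing batch, and the young mice form a separate run of mouse numbers, so that a batch and age cannot be told apart. The libraries least like the rest of their own group were old + AP-treated mouse 19, old + AP-treated mouse 18 and old + vehicle-treated mouse 16, whose median correlations of log2 CPM (counts scaled to a common library size) with their group were 0.948, 0.960 and 0.962. Osteoclast markers (Acp5, Ctsk, Calcr and 7 others), osteoblast markers and osteocyte markers were detected in all 41 mice, as were those of marrow, blood and muscle. The summed level of the 8 skeletal muscle markers ranged from 6192 to 93410 CPM and that of the 8 neutrophil markers from 4815 to 33350 CPM. Cdkn2a, which encodes p16Ink4a and also Arf, had mean levels in CPM of 0.596 ± 0.307 in young (SD, n = 12), 2.78 ± 2.03 in vehicle-treated old (SD, n = 13) and 1.75 ± 1.71 in AP-treated old mice (SD, n = 16). Against young mice its log2 fold change was 2.22 with vehicle (adjusted p = 0.000332) and 1.55 with AP (adjusted p = 0.00773, both from edgeR). Its difference between both old groups did not pass the test (log2 fold change -0.67, adjusted p = 0.265 from edgeR).

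None of the 6 genes changed with age or with AP at the threshold used, an adjusted p under 0.05 in edgeR's quasi-likelihood test over all genes together with a log2 fold change beyond 0.5 in either direction. Over all genes, 1748 (9.06%) passed between old + vehicle-treated and young mice, 4.30% higher and 4.76% lower, against 0 of the 6. For AP against vehicle in old mice, 14 genes (0.0726%) passed, against 0 of the 6, and this background was unsteady, at 0 to 405 genes (the latter without old + AP-treated mouse 9) over the fits that left out 1 mouse and 204 by DESeq2. For old + AP-treated against young mice, 1655 genes (8.58%) passed, 3.73% higher and 4.85% lower, again against 0 of the 6. With shares this low over all genes, 0 of 6 says little about the 6 themselves. By adjusted p alone, Il34 was lower in old + AP-treated than in young mice, as were 8.66% of all genes. At an unadjusted p under 0.05, 1 of the 6 passed between old + vehicle-treated and young mice (Il34), 1 between the old groups (Tnfsf11) and 3 for old + AP-treated against young mice (Tnfsf11, Tnfrsf11b and Il34), beside 6141, 4620 and 6220 of all genes. DESeq2 called 0 of the 6 in each comparison. The comparisons share groups: each of the 3 groups enters 2 of them.

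**Figure D1:**
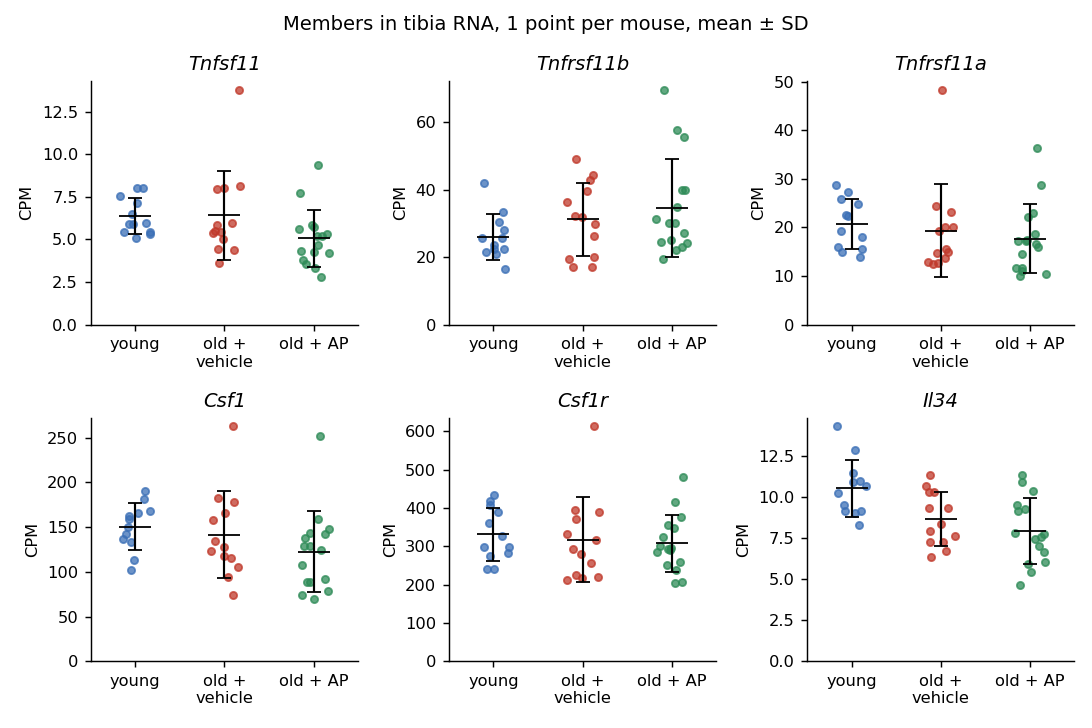
Levels of the 6 genes in CPM (linear axes from 0), 1 point per mouse, in young (n = 12), old + vehicle-treated (n = 13) and old + AP-treated mice (n = 16), with black bars for the mean ± SD. The 3 groups overlap for every gene, and single mice stand high: old + vehicle-treated mouse 7 for Tnfsf11 (13.7 CPM), Tnfrsf11a, Csf1 and Csf1r, and old + AP-treated mouse 18 for Tnfrsf11b (69.6 CPM).

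Tnfsf11, the ligand, showed no difference with age that passed the test. It ranged from 5.11 to 8.03 CPM (median 5.95) in young mice, from 3.63 to 13.7 CPM (median 5.50) in old + vehicle-treated mice and from 2.795 to 9.39 CPM (median 4.94) in old + AP-treated mice. All 3 groups overlapped, with young mice in a narrow band (coefficient of variation 16.8%) and both old groups spread to either side of it (40.9% and 32.8%). Old + vehicle-treated mouse 7 held the highest level of all, well above the 8.13 CPM of the next mouse in its group. The log2 fold change with age was 0.01 (95% confidence interval -0.33 to 0.35, adjusted p = 0.969), and its sign turned in 8 of 41 fits that left out 1 mouse. Over the 11 alternatives other than single mice left out it ran from -0.02 to 0.26. Old + AP-treated mice were at a lower mean than old + vehicle-treated mice, at a log2 fold change of -0.34 (SE 0.16, adjusted p = 0.175), and 11 of 16 lay below the vehicle median. Without mouse 7 that value was -0.20 (adjusted p = 0.362), and over the same 11 alternatives it was -0.39 to -0.17. Against young mice it was -0.33 (SE 0.16, adjusted p = 0.144), with 14 of 16 old + AP-treated mice below the young median and 8 of 16 below the lowest young mouse. Neither difference passed the test over all genes, although without mouse 10 the latter was -0.42 (adjusted p = 0.0473), within the fold threshold, and with the osteoblast score as a covariate it turned to 0.09 (adjusted p = 0.764).

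Csf1, the main ligand of CSF1R, was at 102 to 190 CPM (median 155) in young, 74.2 to 263 CPM (median 128) in old + vehicle-treated and 69.7 to 252 CPM (median 127) in old + AP-treated mice. The high ends of both old groups were single animals, mouse 7 and old + AP-treated mouse 27, and the next mice were at 182 and 159 CPM. The groups overlapped, although 14 of 16 old + AP-treated mice were below the young median. The log2 fold changes were -0.09 with age (adjusted p = 0.765), -0.21 with AP (adjusted p = 0.422) and -0.29 for old + AP-treated against young mice (SE 0.16, adjusted p = 0.201). Without mouse 7 the values were -0.20 with age and -0.10 with AP. Leaving out mouse 27 took the value with AP to -0.31 and the last to -0.40 (adjusted p = 0.0474), still short of the fold threshold. The Csf1 values turned, with the osteoblast score as a covariate, to 0.25 with age (adjusted p = 0.078) and 0.23 for old + AP-treated against young mice (adjusted p = 0.212). Over the 11 alternatives other than single mice left out, the Csf1 value with AP was -0.25 to -0.03.

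Il34, the second ligand of CSF1R, gave the lowest adjusted p of the 6. Levels were 8.33 to 14.4 CPM (median 10.5) in young, 6.36 to 11.4 CPM (median 8.35) in old + vehicle-treated and 4.68 to 11.4 CPM (median 7.68) in old + AP-treated mice. No old mouse exceeded the highest young mouse, whereas 6 of 13 old + vehicle-treated and 10 of 16 old + AP-treated mice were below the lowest young one, and the ranges overlapped. Set against young mice, the old + AP-treated group had a log2 fold change of -0.41 (SE 0.11, adjusted p = 0.0111), a level 0.753 times that of young mice, with 14 of 16 mice below the young median. The adjusted p of this comparison stayed between 0.00428 and 0.0276 whichever mouse was left out. Between old + vehicle-treated and young mice the log2 fold change was -0.28 (SE 0.12, adjusted p = 0.0976), with 11 of 13 mice below the young median. AP against vehicle gave -0.13 (95% confidence interval -0.36 to 0.10, adjusted p = 0.482), so a difference between the old groups was not shown. Exons of Il34 overlap those of the antisense genes Gm15894 and Gm15895, and no source used here states the strand setting of the counts. Both antisense genes were near 0, at no more than 18 reads in any library, against 239 or more for Il34. With the osteoblast marker score in the model (chosen after seeing the data), the Il34 log2 fold change between old + AP-treated and young mice was -0.24 (adjusted p = 0.302). In bulk RNA such as this, fewer cells of a type and less RNA per cell cannot be told apart.

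Tnfrsf11b, the decoy receptor, was higher in the mean of each old group, short of the threshold. It ranged from 16.4 to 42.1 CPM (median 24.6) in young, 16.98 to 48.99 CPM (median 32.02) in old + vehicle-treated and 19.4 to 69.6 CPM (median 30.1) in old + AP-treated mice. The highest old + AP-treated mice were mouse 18 (69.6 CPM) and mouse 12 (57.8 CPM), and 3 mice of each old group lay above the highest young mouse, with none below the lowest. The log2 fold changes were 0.26 with age (SE 0.19, adjusted p = 0.372), 0.15 with AP (SE 0.18, adjusted p = 0.616) and 0.41 for old + AP-treated against young mice (SE 0.19, adjusted p = 0.117). In the last, 11 of 16 mice were above the young median, and without mouse 18 the value was 0.30 (adjusted p = 0.256), while the value with AP was then 0.04 (adjusted p = 0.906). Without mice 18 and 19 these values were 0.23 (adjusted p = 0.397) and -0.02 (adjusted p = 0.963).

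The receptors on the osteoclast lineage passed in none of their 6 comparisons. Tnfrsf11a, which encodes RANK, was at 13.95 to 28.7 CPM (median 20.8) in young, 12.4 to 48.2 CPM (median 15.7) in old + vehicle-treated and 10.1 to 36.3 CPM (median 16.9) in old + AP-treated mice. The Tnfrsf11a log2 fold changes were -0.10 with age (95% confidence interval -0.50 to 0.30, adjusted p = 0.774), -0.13 with AP (-0.51 to 0.24, adjusted p = 0.667) and -0.24 for old + AP-treated against young mice (-0.62 to 0.15, adjusted p = 0.406). Csf1r, on the plus strand of chromosome 18, encodes the receptor of both CSF1 and IL-34 and was the most abundant of the 6, at 241 to 435 CPM (median 313) in young, 212 to 615 CPM (median 294) in old + vehicle-treated and 205 to 481 CPM (median 295) in old + AP-treated mice. Mouse 7 was again highest in the vehicle group for both receptors and mouse 27 in the AP group, while the remaining mice of the groups overlapped throughout. The Csf1r log2 fold changes were -0.06 (-0.36 to 0.24, adjusted p = 0.817), -0.04 (-0.32 to 0.23, adjusted p = 0.864) and -0.10 (-0.39 to 0.18, adjusted p = 0.643) in the same order. Without mouse 7, the values with age were -0.29 for Tnfrsf11a (adjusted p = 0.248) and -0.18 for Csf1r (adjusted p = 0.362), and those with AP turned to 0.06 and 0.07. Without mouse 27, the Tnfrsf11a value with AP was -0.24 and the Csf1r values were -0.10 with AP and -0.16 for old + AP-treated against young mice. All 6 values of Tnfrsf11a and Csf1r were above 0 with the osteoblast score as a covariate, from 0.07 to 0.29, and none passed. Csf1r exons overlap those of Hmgxb3 on the opposite strand, a gene at 29.2 ± 1.95 CPM (SD, n = 12) in young mice, about which the same limit on strand holds. Against young mice the Hmgxb3 log2 fold change was 0.19 with vehicle (adjusted p = 0.00263) and 0.17 with AP (adjusted p = 0.007, both from edgeR). Both are inside the fold threshold, and the part of Hmgxb3 in the Csf1r values was not tested.

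**Figure D2:**
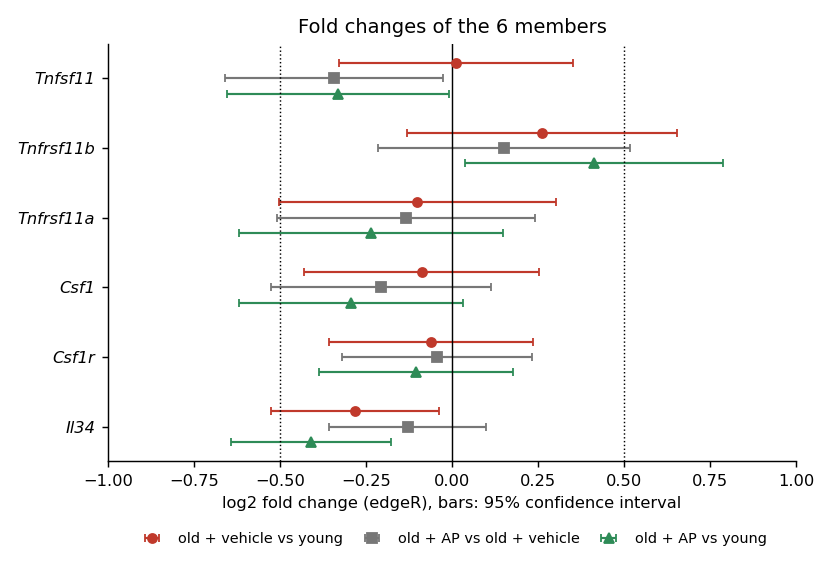
Log2 fold changes of the 6 genes from edgeR with 95% confidence intervals (bars), for old + vehicle-treated against young (circles), old + AP-treated against old + vehicle-treated (squares) and old + AP-treated against young mice (triangles); dotted lines mark the fold threshold of 0.5. All 18 values lie inside the dotted lines, from -0.41 (Il34) to 0.41 (Tnfrsf11b), both between old + AP-treated and young mice.

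The Tnfsf11 to Tnfrsf11b ratio of each mouse, which sets the ligand against its decoy, was lower in old + AP-treated than in young mice. Per length of transcript, the ratio was 0.204 to 0.481 (median 0.323) in young mice, 0.141 to 1.01 (median 0.236) in old + vehicle-treated mice and 0.0779 to 0.308 (median 0.205) in old + AP-treated mice. Old + vehicle-treated mouse 7, with 702 Tnfsf11 and 877 Tnfrsf11b reads, was the single mouse in which the ligand reached its decoy per length, and the next in its group was at 0.433. The lowest ratios were those of old + AP-treated mice 18 and 19 (0.0779 and 0.0864), with 5984 and 3296 Tnfrsf11b reads. These are also the 2 libraries least like their group, with the lowest osteocyte (-2.40 and -2.75), endothelial (-2.17 and -2.46) and skeletal muscle scores (-1.56 and -2.67) of all mice and neutrophil scores of 1.45 and 2.18, and the part of this in the ratio was not tested. The groups overlapped, but all 16 old + AP-treated mice were below the young median, and 8 of them were below the lowest young mouse, against 4 of 13 old + vehicle-treated mice.

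On the log2 scale of the count ratio the young mice had a mean of -2.01 ± 0.37 (SD, n = 12), the old + vehicle-treated mice one of -2.28 ± 0.76 (SD, n = 13) and the old + AP-treated mice one of -2.74 ± 0.59 (SD, n = 16). The old + AP-treated mice differed from the young by -0.73 (SE 0.18, two-sided permutation test, p = 0.00062, adjusted over 3 comparisons p = 0.00186), which is 0.604 times the young ratio. It kept an adjusted p of 0.00063 to 0.00528 whichever mouse was left out, and without mice 16 and 18 (left out together after seeing the data) it was -0.64. Without mice 18 and 19 (likewise) it was -0.56 (permutation adjusted p = 0.00309). Between old + vehicle-treated and young mice the difference was -0.27 (SE 0.23, permutation adjusted p = 0.274), and 10 of 13 mice were below the young median. That result rested on mouse 7: without it the difference was -0.44 and the permutation adjusted p 0.0341. AP against vehicle gave a difference of -0.46 (SE 0.26, permutation adjusted p = 0.115), -0.29 without mouse 7 and -0.28 without mice 18 and 19, none of which passed the test. Over the 41 mice with group means removed, the ratio correlated with the osteoclast marker score (Pearson r = 0.53, Spearman rho = 0.43, permutation p = 0.00138 and 0.00696, adjusted over 13 lists p = 0.0179), and r was 0.33 without mice 7 and 18. Within groups it was 0.01 in young, 0.68 in old + vehicle-treated and 0.55 in old + AP-treated mice. With the chondrocyte marker score the ratio gave r = -0.40 (rho = -0.39, permutation p = 0.00965 and 0.0147), which missed the threshold over 13 lists (adjusted p = 0.0627), and r was -0.51 without mice 7 and 18. Within groups that r was -0.49 in young, 0.14 in old + vehicle-treated and -0.73 in old + AP-treated mice, and mice 18 and 19, lowest in ratio, had the 2 highest chondrocyte scores of all mice (2.33 and 1.81). The summed osteoclast markers were at 2624 to 7747 CPM in young, 2481 to 13630 CPM in old + vehicle-treated and 2196 to 9270 CPM in old + AP-treated mice, mice 7 and 27 being the highest of the old groups. The part of either list in the ratio was not tested.

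**Figure D3:**
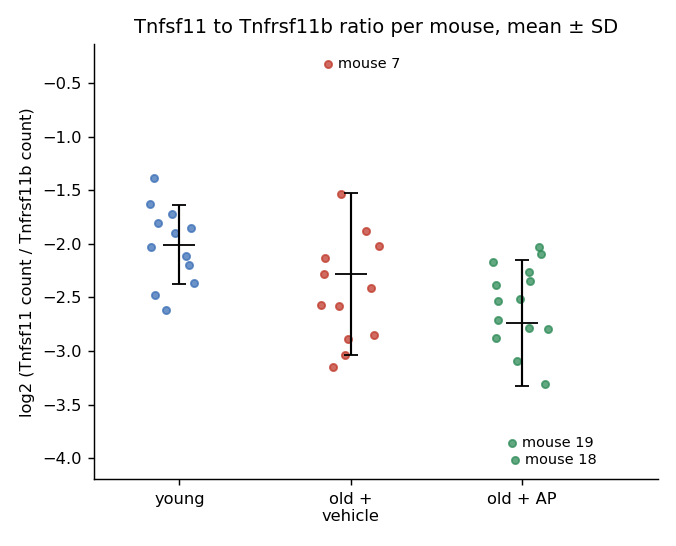
Log2 ratio of Tnfsf11 to Tnfrsf11b counts, 1 point per mouse, by group, with black bars for the mean ± SD (0.5 was added to each count). Means are -2.01 in young, -2.28 in old + vehicle-treated and -2.74 in old + AP-treated mice, with mouse 7 far above its group and mice 18 and 19 lowest.

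Per length of transcript, as CPM per kilobase over all 41 mice, the order of levels was Csf1r (65.1 ± 17.3, SD), Csf1 (25.99 ± 8.07), Tnfrsf11b (11.02 ± 4.21), Il34 (4.57 ± 1.06), Tnfrsf11a (3.19 ± 1.24) and Tnfsf11 (2.63 ± 0.88). Csf1r exceeded Csf1, and Tnfrsf11b exceeded Il34, in 41 of 41 mice, and Csf1 exceeded Tnfrsf11b in 39. The lower steps were within the spread of the mice, with Il34 above Tnfrsf11a in 33 mice and Tnfrsf11a above Tnfsf11 in 32. The decoy was thus more abundant per length than the ligand in 40 of 41 mice, mouse 7 being the exception.

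The ligand, its receptor and the CSF1 pair rose and fell together from mouse to mouse, and the decoy did not follow them. With group means removed, 6 of 15 pairs of the genes passed an adjusted p under 0.05 (permutation within groups), and these were all 6 pairs among Tnfsf11, Tnfrsf11a, Csf1 and Csf1r. Tnfrsf11a and Csf1r gave r = 0.90 (rho = 0.88), Tnfrsf11a and Csf1 gave r = 0.84 (rho = 0.84), and Csf1 and Csf1r gave r = 0.74 (rho = 0.71), each with a permutation p of 1e-05, the smallest that 100000 resamples can give, and an adjusted p of 3e-05. Without the pair of mice farthest from the median, mice 7 and 27, these values were 0.85, 0.77 and 0.63.

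Tnfsf11 correlated with its receptor gene Tnfrsf11a at r = 0.76 (rho = 0.64, permutation p = 1e-05, adjusted p = 3e-05), with Csf1r at r = 0.71 (rho = 0.64, permutation p = 1e-05, adjusted p = 3e-05) and with Csf1 at r = 0.66 (rho = 0.61, permutation p = 8e-05, adjusted p = 0.0002). Without the farthest mice, 7 and 10, the values were 0.64, 0.62 and 0.57. Within young mice, where Tnfsf11 varied least, they were 0.10, 0.08 and 0.05, against 0.80, 0.86 and 0.68 within old + vehicle-treated and 0.91, 0.77 and 0.78 within old + AP-treated mice. The difference between young and old mice in these relations was not tested.

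Tnfsf11 and Tnfrsf11b, ligand and decoy, had r = 0.14 (rho = 0.23, permutation p = 0.426 and 0.161, adjusted p = 0.581), and Tnfrsf11b was between -0.06 and -0.01 with Tnfrsf11a, Csf1 and Csf1r. Both ligands of CSF1R were less closely related than CSF1 and its receptor: Csf1 and Il34 gave r = 0.35 (rho = 0.40, permutation p = 0.0417 and 0.0159, adjusted p = 0.0893 and 0.0340), so the pair passed by rank only. Il34 and Csf1r gave r = 0.11 (rho = 0.12, permutation p = 0.517 and 0.471, adjusted p = 0.646). Within old + vehicle-treated mice Il34 had r of 0.72 with Csf1, 0.62 with Csf1r, 0.61 with Tnfrsf11a and 0.57 with Tnfsf11, against -0.29 to 0.15 with the same genes within old + AP-treated mice and -0.33 to 0.46 within young mice. The differences between groups in these relations were not tested.

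**Figure D4:**
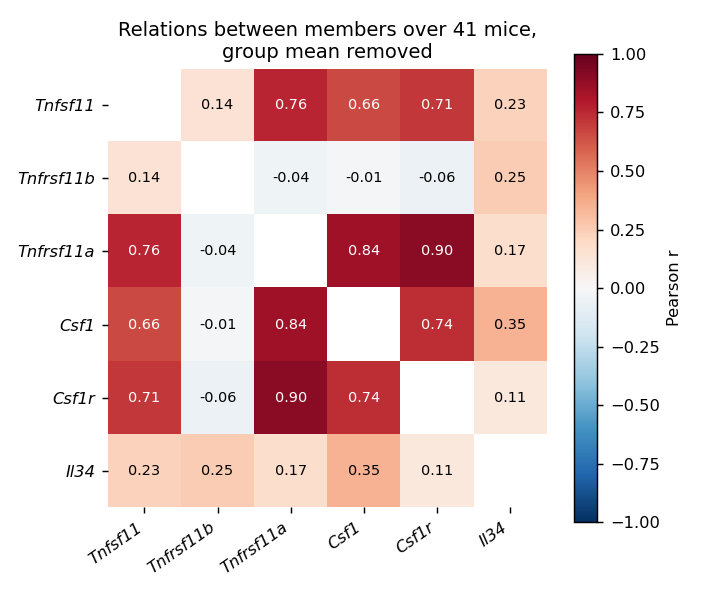
Pearson r for each of the 15 pairs of the 6 genes over 41 mice, on log2 CPM with the group mean removed; colour runs from -1 (blue) to 1 (red). Tnfsf11, Tnfrsf11a, Csf1 and Csf1r form a block with r of 0.66 to 0.90, outside which no value exceeds 0.35.

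Over all mice the 4 genes of this block moved with osteoclast markers, and Tnfrsf11b and Il34 moved with others. Each marker list was scored in a mouse as the mean z-score of its genes, none of which is one of the 6, and 14 of the 78 relations of a gene with a list passed an adjusted p under 0.05 by Pearson r. With the osteoclast score r was 0.93 for Tnfrsf11a (rho = 0.92), 0.88 for Csf1r (rho = 0.86), 0.86 for Csf1 (rho = 0.85) and 0.68 for Tnfsf11 (rho = 0.58, permutation p = 1e-05, adjusted p = 0.000111 for each r). These fell to 0.89, 0.83, 0.79 and 0.57 without the 2 farthest mice of each gene. For Tnfsf11 r was 0.04 within young mice, against 0.73 within old + vehicle-treated and 0.84 within old + AP-treated mice, while Tnfrsf11a, Csf1r and Csf1 had r of 0.70 or more within each group. Tnfrsf11b (r = -0.07) and Il34 (r = 0.17) did not pass with that score.

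With the osteoblast score, which stands for the cells that make collagen and osteocalcin, r was 0.84 for Csf1 (rho = 0.81), 0.71 for Tnfrsf11a (rho = 0.75), 0.68 for Tnfsf11 (rho = 0.74) and 0.59 for Csf1r (rho = 0.64), with permutation p of 1e-05 to 8e-05 and adjusted p of 0.000111 to 0.000624. Within young mice the Tnfsf11 value was 0.05. By Pearson r, Tnfrsf11b passed with the chondrocyte score alone (r = 0.70, rho = 0.66, permutation p = 1e-05, adjusted p = 0.000111), a list of cartilage genes such as Acan and Col2a1, and without mice 18 and 12 r was 0.64. Within groups that r was 0.68 in young, 0.42 in old + vehicle-treated and 0.87 in old + AP-treated mice. With the osteocyte score Tnfrsf11b did not pass over all mice (r = 0.06, rho = 0.41, permutation adjusted p = 0.816 and 0.0569). Its r with that score was 0.68 within young, 0.68 within old + vehicle-treated and -0.26 within old + AP-treated mice. By Pearson r, Il34 passed with the stromal list alone (Cxcl12, Lepr, Kitl and others, r = 0.57, rho = 0.50, permutation p = 0.0002, adjusted p = 0.00142), with r of 0.20 within young, 0.53 within old + vehicle-treated and 0.71 within old + AP-treated mice. By rank alone, Il34 also passed with the chondrocyte score (rho = 0.43, adjusted p = 0.0478) and Tnfrsf11a with the osteocyte score (rho = 0.42, adjusted p = 0.0478), from permutation p of 0.00858 and 0.0092. Csf1r also rose with the macrophage score (r = 0.63, rho = 0.67, permutation p = 2e-05, adjusted p = 0.000173) and fell with the skeletal muscle score (r = -0.54, rho = -0.55, permutation p = 0.0003, adjusted p = 0.00195). Csf1 also passed with the osteocyte score (r = 0.49, rho = 0.49, p = 0.00393, adjusted p = 0.0219) and the endothelial score (r = 0.51, p = 0.00177, adjusted p = 0.0106), the latter with a rho of 0.40 that did not pass (adjusted p = 0.0672), all from permutation within groups. Within groups the osteocyte value was 0.17 in young, 0.12 in old + vehicle-treated and 0.70 in old + AP-treated mice, where mice 18 and 19 had the lowest osteocyte scores (-2.40 and -2.75) with Csf1 at 73.9 and 78.7 CPM.

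Of the osteoclast markers 1 of 10 was lower with age (Itgb3) and 0 of 10 passed in the other comparisons, with medians of 0.04, -0.23 and -0.18 for age, AP and old + AP-treated against young, beside 0.01, 0.00 and 0.02 over all genes. Of the osteoblast markers, 3 of 8 were lower with age and 6 of 8 for old + AP-treated against young mice (median log2 fold changes -0.56 and -0.84), beside 4.76% and 4.85% of all genes, and 0 of 8 passed with AP. Their summed level was 35370 to 89380 CPM in young, 15780 to 79490 CPM in old + vehicle-treated and 6814 to 69760 CPM in old + AP-treated mice. Of the stromal list, 3 of 7 were lower and 1 higher with age, and 2 of 7 were lower for old + AP-treated against young mice. Of the chondrocyte list 1 of 5, Col2a1, was lower in both comparisons with young mice and 0 of 5 passed with AP, with median log2 fold changes of -0.29 with age, 0.11 with AP and 0.66 for old + AP-treated against young mice. Of the osteocyte markers 2 of 6 (Sost and Mepe) were higher and 1 (Phex) lower with age, while for old + AP-treated against young mice the same 2 were higher and 2 (Phex and Pdpn) lower. The B cell markers were lower with age in 6 of 6 (median -1.07), and 1 of 6 (Pax5) was lower for old + AP-treated against young mice (median -0.55). Of the T cell markers 0 of 6 passed with age (median 0.64). For old + AP-treated against young mice 4 of 6 (Cd3e, Cd3g, Cd8a and Trac) were higher (median 1.09), beside 3.73% of all genes. Old + AP-treated mouse 18 stood far above the rest, with summed T cell markers at 360 CPM. The medians were 48.9 CPM in its group and 40.9 CPM in young mice, and the part of this mouse in the 4 calls was not tested. Of the erythroid markers 3 of 7 were lower with age and 2 of 7 for old + AP-treated against young mice. In the latter comparison 2 of 8 neutrophil and 2 of 5 monocyte markers were higher. Of the macrophage markers 1 of 9 was lower in both comparisons with young mice. Of the skeletal muscle markers 1 of 8 was higher with age, and their median with AP was -0.50. None of these, nor of the osteocyte, B cell and T cell markers, passed with AP. The part of these lists in the values of the 6 genes was not tested, but with the osteoblast score as a covariate the signs of several turned, as given with the alternatives.

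**Figure D5:**
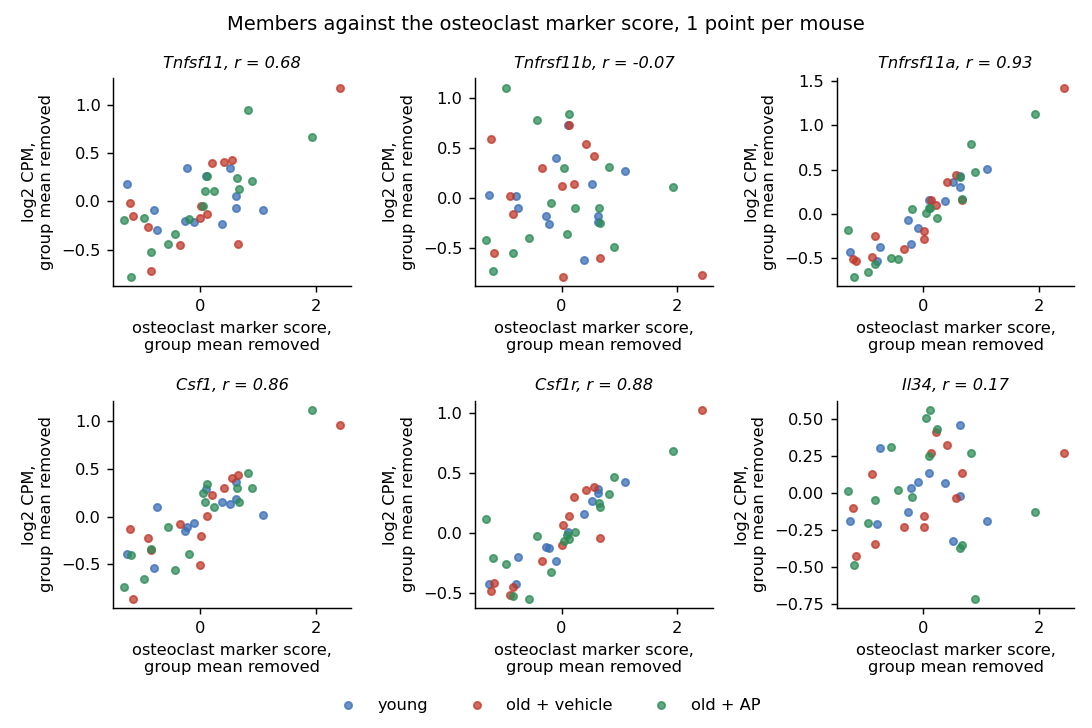
Log2 CPM of each of the 6 genes against the osteoclast marker score (mean z-score of 10 genes), both with the group mean removed, 1 point per mouse, coloured by group. Points of Tnfrsf11a (r = 0.93), Csf1r (r = 0.88) and Csf1 (r = 0.86) lie close to a line that runs up to mice 7 and 27 at the right, while those of Tnfrsf11b (r = -0.07) and Il34 (r = 0.17) do not.

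Over the 41 mice, the genes most like each of the 6 among 15610 genes with a mean of at least 1 CPM were sought by the same correlation, as a description. Nearest to Tnfsf11 were Olfml2b (r = 0.82), Srd5a1 (0.80) and Slc39a1 (0.79), and their r within young mice was 0.09, 0.14 and 0.38. Nearest to Tnfrsf11b were Vit (0.76), 1500015O10Rik (0.76) and Ndufa4l2 (0.75), and nearest to Tnfrsf11a were Slc37a2 (0.96), Gpr137b-ps (0.95) and Gpr137b (0.95), the latter pair being near copies whose reads may be shared. Csf1 was most like Gm12892 (0.91), Tnc, a matrix glycoprotein (0.91), and Adcy3, an adenylyl cyclase (0.91). Csf1r was most like Cd68, a lysosomal macrophage marker (0.95), Hexa, a lysosomal hexosaminidase subunit (0.94), and Cyp4v3 (0.93). Il34 was most like Nbl1, a BMP antagonist (0.69), A4galt (0.69) and Kitl, the ligand of the KIT receptor (0.69), and Kitl is also on the stromal list.

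The wider pathway was followed in 87 genes on 4 lists, of which 84 were tested. With age 9 of the 84 passed (10.7%, beside 9.06% of all genes), 5 higher and 4 lower. With AP 0 of the 84 passed, beside 0.0726% of all genes. Of old + AP-treated against young mice, 7 passed (8.33%, beside 8.58%), 1 higher and 6 lower. Without old + AP-treated mouse 27 the last count was 11, with Fos, Il1b, Lif and Wnt5a added to the same 7, and without mice 18 and 19 it was 5. Jun and Il1a passed with AP by DESeq2, and by edgeR without mouse 9, 10 or 2. The counts of 9 and 7 include Fosl1, which a model of young mice and 1 old group did not keep in its filter on low counts (83 of the 84 tested). All 3 shares were near those of all genes.

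Downstream of RANK, 3 of 29 signalling genes were higher with age and 0 lower, beside 4.30% and 4.76% of all genes. These were Fos, Fosl1 and Jun, each of which encodes a subunit of the AP-1 transcription factor, while Fosl2, another on the list, was at 0.02 (adjusted p = 0.917, edgeR). Fosl1 had a mean CPM of 0.0584 ± 0.0330 in young (SD, n = 12) and of 0.468 ± 0.903 in vehicle-treated old mice (SD, n = 13) (log2 fold change 2.96, SE 0.62, adjusted p = 0.000675, edgeR), higher than the young median in 11 of 13 mice but very low throughout. Without mouse 16 the Fosl1 value was 1.88 (adjusted p = 0.00581). A model of young mice and 1 old group did not keep Fosl1 in its filter on low counts. Its place among the genes tested, and so in the count of 3, thus rested on the old mice, where it is high. Jun rose from 29.1 ± 11.9 to 56.4 ± 25.2 CPM (log2 fold change 0.96, SE 0.21, adjusted p = 0.0014), with 13 of 13 mice above the young median, and Fos from 24.7 ± 6.29 to 46.0 ± 29.7 CPM (0.90, SE 0.30, adjusted p = 0.0308), with 11 of 13. The Fos call was lost without mouse 6, 7 or 39 (log2 fold changes 0.67, 0.81 and 0.87, adjusted p = 0.0902, 0.0524 and 0.0513). In the 16 AP-treated old mice Jun was at 36.8 ± 14.2 CPM (SD), where the log2 fold change against vehicle was -0.62 (adjusted p = 0.0761) and 13 of 16 mice lay below the vehicle median, short of the threshold. Fosl1 was also higher in old + AP-treated than in young mice (2.33, SE 0.60, adjusted p = 0.0064, 14 of 16 mice above the young median), with the same limit from the filter. The median log2 fold change of the RANK list with age was 0.11. Traf6, the adaptor of RANK, and Nfatc1, the master regulator of osteoclast differentiation, were among the 26 genes that did not pass.

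Among the CSF1R and immunoreceptor signalling genes, 1 of 19 was lower in both comparisons with young mice, a share near the 4.76% and 4.85% of all genes. That gene, Ptprz1, a receptor tyrosine phosphatase that also binds IL-34, fell from 123 ± 12.6 CPM in young to 74.7 ± 20.1 CPM in old + vehicle-treated mice (log2 fold change -0.72, SE 0.21, adjusted p = 0.0143), all 13 of which were below the young median. In old + AP-treated mice it was at 71.8 ± 35.5 CPM (-0.78, SE 0.20, adjusted p = 0.00652), with 15 of 16 below the young median. With the osteoblast score as a covariate both calls were lost, at -0.23 with age (adjusted p = 0.263) and -0.15 for old + AP-treated against young mice (adjusted p = 0.596). Of the partners and shedding enzymes of RANKL and OPG, among them Lgr4, Tnfsf10, Mmp14 and Adam10, 0 of 7 tested passed in any comparison.

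Of 29 tested inducers of the ligands and their receptors, 2 were higher and 3 lower with age, beside 4.30% and 4.76% of all genes, and 0 were higher and 5 lower for old + AP-treated against young mice, beside 3.73% and 4.85%. Il6, a cytokine that induces RANKL, had a log2 fold change of 1.52 (SE 0.49, adjusted p = 0.023), with 10 of 13 mice above the young median, and Ptgs2, the inducible prostaglandin synthase, one of 1.92 (SE 0.62, adjusted p = 0.0256), with 9 of 13. Both calls rested on old + vehicle-treated mouse 16: without it the log2 fold changes were 0.51 for Il6 (adjusted p = 0.346) and 0.43 for Ptgs2 (adjusted p = 0.573). The Ptgs2 call was also lost by DESeq2 (0.42, adjusted p = 0.317) and with the osteoclast score as a covariate (1.68, adjusted p = 0.0567). Both were low in every group, at mean levels of 0.965 ± 1.77 CPM and 2.66 ± 6.20 CPM in old + vehicle-treated mice, SDs larger than the means. Wnt16, a Wnt ligand known to raise OPG, fell from 14.6 ± 5.78 CPM in young to 6.59 ± 2.44 CPM in old + vehicle-treated mice (-1.14, SE 0.30, adjusted p = 0.00612) with all 13 below the young median, and was at 5.86 ± 3.94 CPM in old + AP-treated mice (-1.32, SE 0.29, adjusted p = 0.00129). The latter lost its call with the osteoblast score as a covariate (-0.90, adjusted p = 0.0635). Lifr, the receptor of LIF, was lower in both old groups (-0.70 and -0.77, adjusted p = 0.0056 and 0.00171). With the osteoblast score as a covariate its values were -0.31 (adjusted p = 0.0367), inside the fold threshold, and -0.22 (adjusted p = 0.256), so both calls were lost.

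Il1a, an inducer of RANKL, fell with age (-1.10, SE 0.27, adjusted p = 0.00336) and was at -0.33 (adjusted p = 0.379) between old + AP-treated and young mice, with the AP against vehicle value at 0.77 (adjusted p = 0.0825). In old + AP-treated mice set against young ones, the parathyroid hormone receptor gene Pth1r (-0.62, SE 0.22, adjusted p = 0.044), Wnt4 (-0.55, SE 0.18, adjusted p = 0.0278) and the Wnt co-receptor gene Lrp5 (-0.61, SE 0.14, adjusted p = 0.0017) were also lower, in 13, 15 and 16 of 16 mice measured against the young median. Of the osteoblast markers 6 of 8 were lower in the same comparison, and their part in these values was not tested. With the osteoblast score as a covariate, 1 of the 7 genes called in this comparison (Fosl1) still passed, under the limit from the filter given above. Il1a newly passed as lower and Esr1, Fos, Oscar and Ptgs2 as higher, so that 6 of the 84 were called. Under that covariate Pth1r turned to 0.14 and Wnt4 and Lrp5 were at -0.14 and -0.16. With the neutrophil score as a covariate Wnt4 was at -0.32 (adjusted p = 0.0956) and Pth1r at -0.50 (adjusted p = 0.102). Pth1r also lost its call without the filter on low counts (-0.63, adjusted p = 0.0592), without mice 16 and 18 (-0.58, adjusted p = 0.0684), without mice 18 and 19 (-0.52, adjusted p = 0.107) and in 17 of 41 fits that left out 1 mouse (-0.64 to -0.57). Wnt4 lost its call in 2 of those fits (without old + AP-treated mouse 19 or young mouse 30, at -0.50 and -0.49) and without mice 18 and 19 (-0.45, adjusted p = 0.0542).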

How the data were processed

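Gene-level read counts of 41 tibial RNA libraries were analysed as deposited. Sequencing by the authors used a HiSeq2000, and per the labels they aligned the reads with TopHat2 2.0.6 to the mouse genome (GRCm38) and counted reads with HTSeq; annotation release and strand setting are not given in the sources used here. The deposited counts are not normalized, and no column was left out. The labels name the molecule genomic DNA although the series is one of expression, and the age range of the young mice is wider in the labels than in the study's methods.

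Counts were scaled by TMM and tested in edgeR 4.0.16 (R 4.3.3) by quasi-likelihood in 1 model of the 3 groups, for the 19292 genes kept by filterByExpr, with Benjamini-Hochberg adjustment. SE is the log2 fold change divided by the square root of F. CPM per kilobase used the exon lengths in the table. The ratio was log2((Tnfsf11 + 0.5)/(Tnfrsf11b + 0.5)), tested by two-sided permutation with 100000 resamples in SciPy 1.17.1 and NumPy 2.4.6. Relations used log2 CPM (prior count 2) with group means removed, and permutation within groups. The pathway genes named are those that passed, up to 6 per list and comparison by size, or that passed under an alternative given. Traf6, Nfatc1, Fosl2 and 4 RANKL and OPG partners were named after their values were seen. For likeness 3 genes per gene were named. All 264 pairs of libraries within groups differed by more than sampling noise (chi-square per gene at least 33.0). Scripts were tested on simulated data. Alternatives were DESeq2 1.42.0, other scaling, filter, model and covariates, and each mouse left out. The members and lists were chosen with earlier results of these data known. All 6 genes had at least 138 reads in every library.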

Additional observations from a re-analysis of the deposited data

How the results depend on the processing

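Of the 6 genes, 0 passed in any comparison under any alternative that kept the fold threshold, DESeq2 and the 41 fits that left out 1 mouse included; without that threshold 1 (Il34, log2 fold change -0.41) passed between old + AP-treated and young mice. The ratio kept its direction and its side of the threshold with 5 added to each count, by medians, as a linear ratio and without mice 16 and 18 or 18 and 19. Leaving out 1 mouse at a time gave a ratio difference of -0.44 to -0.20 with age, -0.53 to -0.29 with AP and -0.78 to -0.64 between old + AP-treated and young mice, and without mouse 7 the first passed (adjusted p = 0.0341). Of 738 fold changes of the 6 genes with 1 mouse left out, 10 turned sign: Tnfsf11 with age in 8 fits (-0.13 to 0.064 over all 41 fits, turned values being -0.13 without mouse 7, between -0.020 and -0.006 without 1 of 7 other mice), and, both with AP and without mouse 7, Tnfrsf11a (0.057, with a range of -0.24 to 0.057) and Csf1r (0.074, with a range of -0.099 to 0.074). Without mice 18 and 19 (chosen after seeing the data) Tnfrsf11b turned to -0.025 with AP. With the muscle score as a covariate Csf1r turned to 0.028 with age. With the osteoblast score (chosen after seeing the data), signs turned for Tnfrsf11a (0.22), Csf1 (0.25) and Csf1r (0.13) with age, for Tnfrsf11a (0.070) and Csf1r (0.105) with AP, and for Tnfsf11 (0.090), Tnfrsf11a (0.29), Csf1 (0.23) and Csf1r (0.24) between old + AP-treated and young mice. With the osteoclast score (likewise), they turned for Tnfsf11 with age (-0.024), Tnfrsf11a (0.057) and Csf1r (0.113) with AP, and Csf1r between old + AP-treated and young mice (0.051). The cause of these turns was not tested, and no turned value passed the threshold. The 6 related pairs passed in both alternatives, and with the group mean kept Csf1 and Il34 passed as well (r = 0.44, permutation adjusted p = 0.043). Over all genes, called genes with AP numbered 0 (model of 2 groups, no filter, osteoblast score, or without mice 16 and 18 or 18 and 19), 1 (muscle score), 13 (DESeq2 size factors), 33 (no fold threshold), 84 (osteoclast score), 104 (neutrophil score) and 204 (DESeq2), beside 14; with age 2971 (neutrophil score) and 3736 (no fold threshold), beside 1748; and for old + AP-treated against young mice 778 (osteoblast score) and 3437 (no fold threshold), beside 1655. Pathway genes called without the fold threshold numbered 23 with age and 17 for old + AP-treated against young mice, beside 9 and 7, and with AP DESeq2 and the fits without mouse 2, 9 or 10 called 2; without mouse 27 the last was 11. With the osteoblast score Pth1r turned to 0.14. No paired analysis was possible because the mice carry numbers that no group shares.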
